A study of Mus musculus with 6 samples.

Results

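This report describes 35 genes of glucose uptake, glycolysis, lactate handling and pyruvate entry in ischemic mouse retinas. They were chosen by name from textbook pathway membership, out of 32285 genes in the deposited count table. Earlier results of these data were known when they were chosen. The samples were 6 retinas from wild-type C57BL/6J mice at postnatal day 18 (PN18), 3 labelled OIR-CIH and 3 labelled OIR-Norm. All pups, controls included, first went through the oxygen-induced retinopathy (OIR) model, in which 75% O2 from PN8 to PN13 (5 days) removes central retinal capillaries and the return to room air leaves a retina short of oxygen. From PN13 the OIR-CIH pups were kept in chronic intermittent hypoxia (CIH), 266 cycles of 135 s between 20.95% and 5% O2 over 10 hours of each day. The OIR-Norm pups received the same gas flow and noise at 20.95% O2. Retinas without OIR are not analysed here, so every difference below is one between 2 groups of ischemic retinas. The OIR model leaves an avascular centre and a vascularized periphery in one retina, and these libraries were made from retina as a whole. The labels do not say whether eyes came from separate animals or litters, so the p-values measure the spread between these libraries, which may be partly technical.

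Glycolysis splits glucose into pyruvate in the cytosol, and lactate dehydrogenase turns pyruvate into lactate when glycolysis runs ahead of the mitochondria. The retina is known for making much lactate even in the presence of oxygen, chiefly in photoreceptors, and glucose reaches it from the blood through the vessel wall and the pigment epithelium. Lactate moves between cells with a proton through monocarboxylate transporters, some of which need the partner protein basigin to reach the membrane. Many genes of this route carry binding sites for hypoxia-inducible factor (HIF), a transcription factor that is degraded when oxygen is plentiful.

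Depth was similar across libraries, at 26289905 to 38010151 counts each, and 20021 genes reached the minimum of 10 counts over the 6 retinas. All 35 members passed this filter. They took 1.98% to 2.27% of all counts in a library. OIR-Norm retina 2 stood apart from the other libraries on the first principal component (42.9% of the variance), and its summed lens markers reached 576 CPM (counts scaled to a common library size) against 19.9 to 90.2 CPM in the others. Rod markers were the most abundant of the cell type lists in every library, with 56154 to 73901 CPM summed over 12 genes, and the groups overlapped in this sum. Of these 12 genes, 11 had a log2 fold change above 0 in OIR-CIH against OIR-Norm (median 0.15), and 0 passed an adjusted p of 0.05 in edgeR. For 3 of them (Nr2e3, Nrl and Pde6b) every OIR-CIH retina was above every OIR-Norm retina, beside 9.12% of all genes. In sum, astrocyte markers (131.6 to 139.9 CPM against 194.0 to 242.0 CPM) and microglia markers (109.4 to 126.8 CPM against 135.0 to 153.5 CPM) were lower in all OIR-CIH retinas. Amacrine and horizontal cell markers were higher in sum (934 to 1087 CPM against 855 to 920 CPM). Of these 12 genes, 10 had a log2 fold change above 0 and 2 below, and 0 passed an adjusted p of 0.05 in edgeR. Only Pax6 and Lhx1 were higher in every OIR-CIH retina than in every OIR-Norm retina, beside 9.12% of all genes, and 10 overlapped. Gfap was the largest part of the astrocyte sum, at a mean of 63.8 CPM in OIR-CIH and 141.6 CPM in OIR-Norm. Gfap, Pax2 and Pdgfra were lower in every OIR-CIH retina than in every OIR-Norm retina, where 9.26% of all genes were. S100b and Aldh1l1 overlapped between groups. The part of these markers in the results below was not tested. Every library held both Xist (298 to 1653 CPM) and transcripts of 4 Y-linked genes (57.3 to 183.8 CPM in sum), which touches 3 X-linked members, Pgk1, Pdha1 and Pdk3. A library may therefore hold RNA of more than 1 animal, and each is called a retina here as in the labels. In bulk tissue, fewer cells of a type and less RNA per cell cannot be told apart.

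The promoters of the 3 members with the lowest p are shown, and where RefSeq gave several starts, the one with the most ACGTG was taken. The HIF binding element shares the letters ACGTG with CACGTG boxes bound by other factors. Each line gives 250 bases before a RefSeq start on GRCm38.p6, read 5′ to 3′ on the gene's strand, with ACGTG (or CACGT, the same letters on the other strand) in capitals; where both overlap they form CACGTG.
Slc16a1 (chr3:104638414-104638663, plus strand): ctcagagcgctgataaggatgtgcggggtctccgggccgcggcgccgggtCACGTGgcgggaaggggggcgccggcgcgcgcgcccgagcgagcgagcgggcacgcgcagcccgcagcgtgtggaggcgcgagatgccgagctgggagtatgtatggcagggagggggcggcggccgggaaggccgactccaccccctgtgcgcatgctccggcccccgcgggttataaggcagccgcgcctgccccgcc
Slc16a3 (chr11:120948817-120949066, plus strand): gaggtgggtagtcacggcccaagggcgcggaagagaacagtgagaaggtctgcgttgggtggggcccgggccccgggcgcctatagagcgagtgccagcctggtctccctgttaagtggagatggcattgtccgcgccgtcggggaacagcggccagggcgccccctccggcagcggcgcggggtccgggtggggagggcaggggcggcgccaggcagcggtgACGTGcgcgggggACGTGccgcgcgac
Ldha (chr7:46845554-46845803, plus strand): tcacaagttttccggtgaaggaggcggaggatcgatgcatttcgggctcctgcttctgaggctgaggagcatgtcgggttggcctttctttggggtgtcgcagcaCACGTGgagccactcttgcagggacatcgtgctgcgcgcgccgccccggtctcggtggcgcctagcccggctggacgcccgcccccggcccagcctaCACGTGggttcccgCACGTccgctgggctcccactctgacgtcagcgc
In Slc16a1 the box began 200 bases before the start. Ldha had boxes beginning 145 and 48 bases before the start and a single CACGT 34 bases before it. The Slc16a3 copies lay 27 and 14 bases before the start. A second Ldha start in RefSeq had no copy. RefSeq promoters of 300 bases (250 before to 50 after the start) were matched for 32 members, and 18 of them (56.2%) had ACGTG on either strand in at least 1 promoter. The share was 21.8% of all 27025 genes with a promoter entry and 30.3% of 8331 genes at a mean of at least 10 CPM. The 32 members had 49 promoters and the 27025 genes had 32851, so members had more windows per gene in which to match. Counted by promoter, the share was 44.9% for members and 19.6% for all promoters. Members without a match included Mpc2, Eno1, Tpi1 and Pdk1, and no promoter entry was found for Slc2a3, Slc16a7 and Bsg. These matches describe letters in a window and not occupancy by any factor.

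In the comparison of OIR-CIH with OIR-Norm, no member met the thresholds of the study, an adjusted p under 0.05 with an absolute log2 fold change over 0.5 (0 of 35 by edgeR's quasi-likelihood test with Benjamini-Hochberg adjustment), where 63 of all genes tested did (0.315%). Without a limit on fold change the count stayed at 0 of 35 against 78 of all genes (0.39%). At an unadjusted p under 0.05 there were 6 members (Slc16a1, Slc16a3, Ldha, Pfkfb3, Mpc2 and Slc2a3), all higher in OIR-CIH, beside 13.2% of all genes. DESeq2 put 2 members, Slc16a1 and Ldha, past an adjusted p of 0.05, both under a log2 fold change of 0.5, and limma put none past it. In 5 members every OIR-CIH retina was above every OIR-Norm retina (Slc16a1, Slc16a3, Ldha, Pfkfb3 and Mpc2), where 9.12% of all genes were apart in this direction. No member was apart in the lower direction, where 9.26% of all genes were. With 35 members these counts are near the shares among all genes and are no result about the list as such.

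The median log2 fold change over the 35 members was 0.06, beside -0.0028 over all genes tested and 0.02 over the 10544 genes at a mean of 10 CPM or more. It was above 0 in 27 members (77.1%) and below 0 in 8, and 55.1% of those 10544 genes were above 0. Member by member the range ran from -0.17 for Pfkp to 0.46 for Slc16a1. For 31 of the 35 (88.6%) the 95% interval lay inside a log2 fold change of 0.5 in either direction, and the exceptions were Slc16a1, Slc16a3, Ldha and the barely detected Pdk4. The share was 90.8% among genes at a mean of 10 CPM or more, so the members were close to other expressed genes in this respect. With 1 retina left out the members' median ran from 0.03 (without OIR-CIH retina 1) to 0.14 (without OIR-Norm retina 1), and was 0.11 without OIR-CIH retina 2. The members above 0 then numbered 22 (without OIR-Norm retina 3) to 29.

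**Figure D1:**
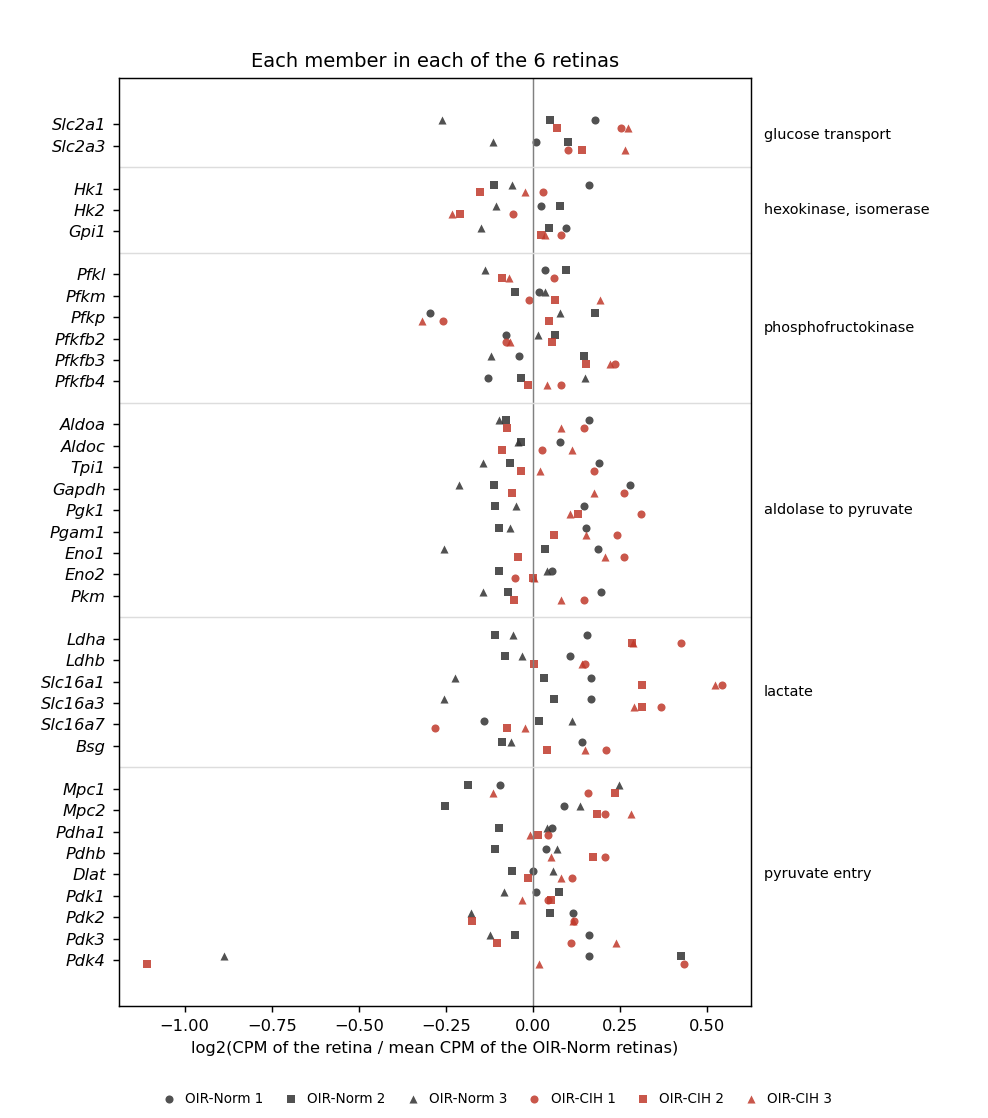
Each member in each retina, as log2 of its CPM over the mean CPM of the 3 OIR-Norm retinas (x axis, log2 scale), grouped by role; black marks are OIR-Norm, red marks OIR-CIH, and the shape gives the retina number. Red marks lie to the right of all black marks in 5 rows, Slc16a1, Slc16a3, Ldha, Pfkfb3 and Mpc2.

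The lactate genes differed most. Slc16a1 encodes MCT1, a monocarboxylate transporter whose sites include glia, endothelium and pigment epithelium (ENSMUSG00000032902, chromosome 3, 104638668 to 104658462). It was at 403, 344 and 397 CPM in OIR-CIH retinas 1 to 3 and at 311, 283 and 237 CPM in OIR-Norm retinas 1 to 3. The lowest OIR-CIH retina was above the highest OIR-Norm retina. The difference was 0.46 on the log2 scale (SE 0.11, 95% interval 0.23 to 0.69), a 1.38-fold higher mean, with an edgeR adjusted p of 0.113 and rank 139 of 20021 genes by p. This p passed 0.05 in DESeq2 (adjusted p = 0.00147) and in edgeR with no filter on low counts (adjusted p = 0.00698), and ranged from 0.0509 to 0.413 when 1 retina was left out.

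Slc16a3 encodes MCT4, the transporter that glycolytic cells use to release lactate (ENSMUSG00000025161, chromosome 11, 120948480 to 120960868). Its values were 156.9, 151.0 and 148.8 CPM in OIR-CIH and 136.3, 126.7 and 101.9 CPM in OIR-Norm. The OIR-CIH retinas lay close together, and the OIR-Norm retinas spread more widely below them. The log2 difference was 0.32 (SE 0.10, edgeR adjusted p = 0.224). Without OIR-Norm retina 3, its lowest library, it was 0.21 (adjusted p = 0.317).

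Ldha encodes the lactate dehydrogenase subunit that favours lactate formation (ENSMUSG00000063229, chromosome 7, 46841475 to 46855627). It was at 2120, 1926 and 1929 CPM in OIR-CIH and at 1760, 1464 and 1518 CPM in OIR-Norm. Again the groups did not overlap, and retina 1 was the highest of both groups. The log2 difference was 0.33 (SE 0.11, edgeR adjusted p = 0.272; DESeq2 adjusted p = 0.0169). In mean level this was 1992 ± 111 against 1581 ± 158 CPM (SD, n = 3 each).

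The other lactate genes overlapped between groups. Ldhb, the subunit that favours pyruvate, was at 112.1 to 124.0 CPM in OIR-CIH and 105.7 to 120.4 CPM in OIR-Norm (log2 difference 0.10, SE 0.08). Bsg, which encodes basigin, was at 907 to 1021 against 829 to 973 CPM (0.13, SE 0.10). Slc16a7, which encodes the high-affinity transporter MCT2 of neurons, was the one member of this group with a negative difference (-0.12, SE 0.11), at 15.9 to 19.1 against 17.6 to 20.9 CPM. Summed over the 6 genes, lactate transcripts stood at 3841, 3459 and 3595 CPM in OIR-CIH and 3318, 2828 and 2831 CPM in OIR-Norm, so the OIR-CIH mean was 121% of the OIR-Norm mean. Ldha was the largest part of each sum.

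**Figure D2:**
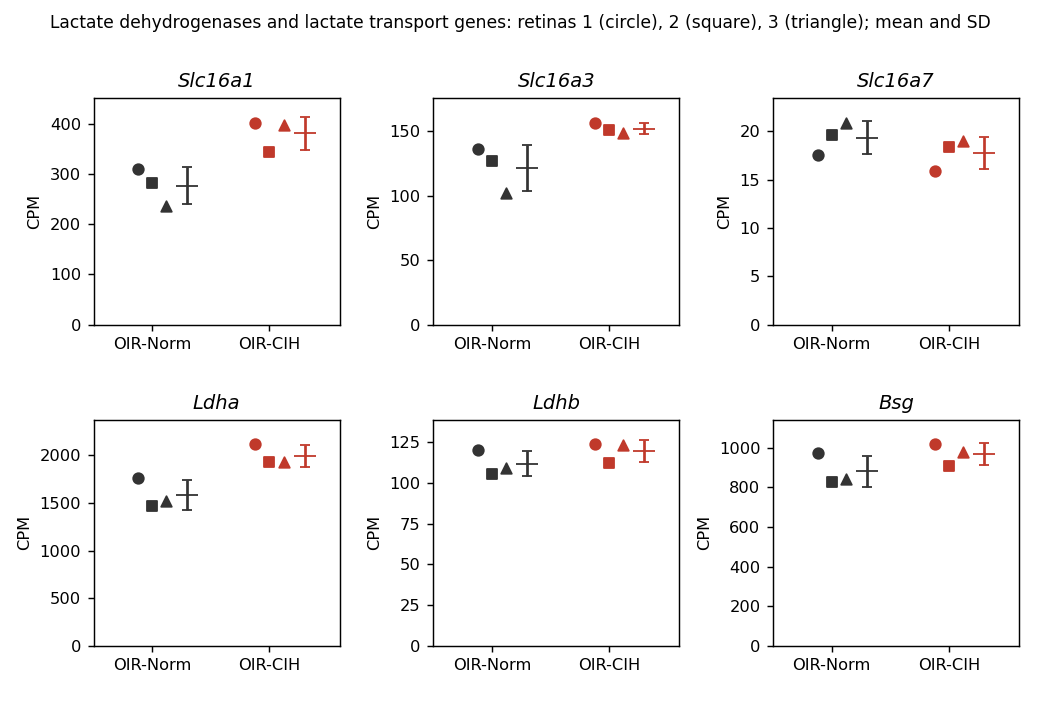
CPM (y axes, from 0) of the 6 lactate genes in each retina, with the mean and SD of the 3 retinas of a group beside the points. The groups are apart for Slc16a1 (lowest OIR-CIH retina 344, highest OIR-Norm retina 311 CPM), Slc16a3 and Ldha and overlap for Slc16a7, Ldhb and Bsg.

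Pigment epithelium markers were counted beside these genes because this layer expresses Slc16a1 and is easily carried along with a dissected retina. All 11 markers were detected, and their sum was 577, 405 and 410 CPM in OIR-CIH and 468, 303 and 259 CPM in OIR-Norm. The groups overlapped through OIR-Norm retina 1. Within both groups the retinas stood in the same order for this sum as for Slc16a1, an order that Gapdh and the sum of all 35 members also had. The median log2 difference of the 11 markers was 0.52. In edgeR 7 of them had an unadjusted p under 0.05, beside 13.2% of all genes, and 0 passed an adjusted p of 0.05. The list split in direction, with 6 markers above and 5 below 0. Ttr and Lrat were apart in the higher direction, beside 9.12% of all genes, and 0 markers were apart in the lower. Ttr, the largest part of the sum, was at 147.5 to 216.4 against 86.3 to 134.1 CPM (log2 difference 0.75, edgeR adjusted p = 0.103). Lrat was at 21.7 to 38.6 against 12.4 to 21.2 CPM (0.80, edgeR adjusted p = 0.173). Rpe65, the visual cycle isomerase of that layer, was at 33.9 to 61.4 against 23.0 to 39.0 CPM. Pmel, a pigment granule gene, went the other way at 17.3 to 40.4 against 25.3 to 85.8 CPM (log2 difference -0.78, adjusted p = 0.372). With the log2 marker sum as a covariate, an alternative chosen after the data were seen, the log2 difference was 0.30 for Slc16a1 (adjusted p = 0.581), 0.18 for Slc16a3 (adjusted p = 0.722) and 0.21 for Ldha (adjusted p = 0.71). The marker sum was itself higher on average in OIR-CIH, and with 3 retinas a group its part in these differences was not tested in any other way. Markers of Müller glia, which also handle lactate, overlapped in sum at 5372 to 6460 against 5390 to 6092 CPM. Of these 12 markers, 6 had a log2 difference above and 6 below 0. Rlbp1 and Car2 were apart in the higher direction and Aqp4 and Abca8a in the lower, beside 9.12% and 9.26% of all genes. The part of Müller glia in the lactate differences was not tested.

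**Figure D3:**
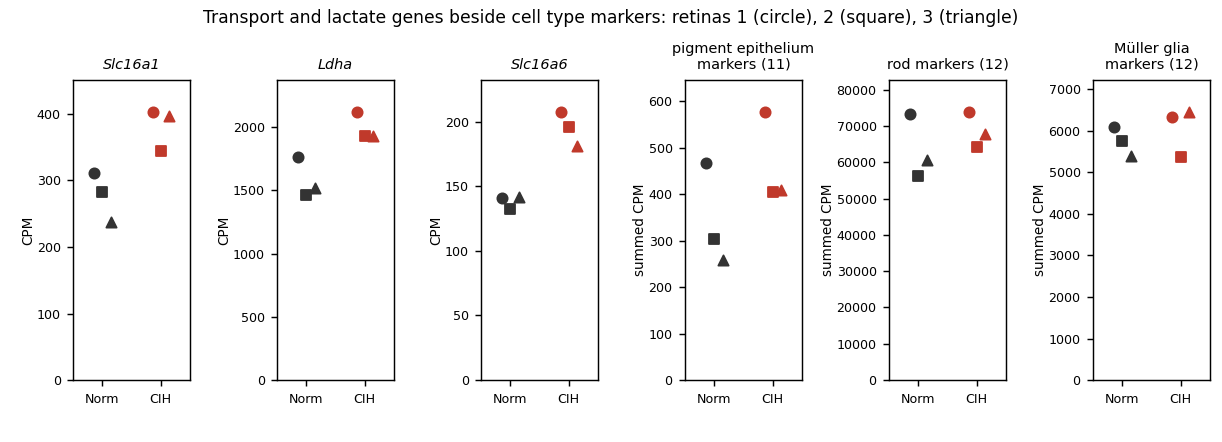
CPM of Slc16a1, Ldha and Slc16a6 and summed CPM of pigment epithelium, rod and Müller glia markers (y axes, from 0) in each retina; black is OIR-Norm, red is OIR-CIH. The 3 genes are apart between groups, while all 3 marker sums overlap, with OIR-Norm retina 1 at 468 CPM within the pigment epithelium range of OIR-CIH (405 to 577 CPM).

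Both glucose transporter genes were higher on average in OIR-CIH without passing the test. Slc2a1 encodes GLUT1, which carries glucose across endothelium and pigment epithelium and into glia and photoreceptors. It was at 434, 382 and 440 CPM in OIR-CIH and 413, 377 and 304 CPM in OIR-Norm. The groups overlapped, with OIR-Norm retina 3 lowest, and the log2 difference was 0.20 (SE 0.11, 95% interval -0.04 to 0.44, edgeR adjusted p = 0.472). It was 0.08 without OIR-Norm retina 3 and 0.043 with the pigment epithelium covariate. Slc2a3, the neuronal transporter GLUT3, was at 114.4 to 128.2 against 98.5 to 114.5 CPM, a log2 difference of 0.17 (SE 0.08). Its unadjusted p of 0.0498 fell just under 0.05 and its adjusted p was 0.378.

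The entry steps of glycolysis pointed in both directions. Hk1 and Hk2 encode the hexokinases that trap glucose as glucose 6-phosphate, Hk2 being the isoform most tied to photoreceptors and to HIF. Hk2 was at 187, 168 and 166 CPM in OIR-CIH and 198, 205 and 181 CPM in OIR-Norm. Only OIR-CIH retina 1 reached into the OIR-Norm range. The log2 difference was -0.17 (SE 0.08, edgeR adjusted p = 0.405), so this gene had the sign opposite to Ldha and Slc16a1. Hk1 (-0.05, SE 0.10) and Gpi1, the isomerase of the next step (0.05, SE 0.10), overlapped between groups.

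Phosphofructokinase commits the sugar to glycolysis, and the bifunctional PFKFB enzymes set the level of its activator fructose 2,6-bisphosphate. Pfkfb3, the kinase-dominant isoform, was at 78.6, 74.3 and 77.8 CPM in OIR-CIH and 65.0, 74.0 and 61.4 CPM in OIR-Norm. The groups nearly touched, at 74.3 and 74.0 CPM in retina 2 of each, and the log2 difference was 0.20 (SE 0.08, edgeR adjusted p = 0.317). Pfkp, the platelet-type subunit, had the lowest difference of the list (-0.17, SE 0.14), with values of 988 to 1273 against 1004 to 1395 CPM. Its 2 lowest libraries, at 988 and 1004 CPM, came from different groups. Pfkl (-0.03), Pfkm (0.08), Pfkfb2 (-0.03) and Pfkfb4 (0.03) had log2 differences whose intervals all included 0.

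The 9 genes from aldolase to pyruvate kinase made up most of the transcripts, 11203 to 14180 CPM in sum, and none was apart between groups. Their log2 differences ran from -0.02 for Eno2, the neuronal enolase, to 0.18 for Pgk1, which makes the first ATP of the pathway, with 8 of the 9 above 0. Pgk1 was at 690, 608 and 599 CPM in OIR-CIH and 616, 516 and 537 CPM in OIR-Norm (SE 0.10, edgeR adjusted p = 0.457). Pgam1, the mutase (0.15, SE 0.09), and Eno1, the ubiquitous enolase (0.15, SE 0.14), followed. Gapdh, often used as a reference gene, was at 2906, 2327 and 2738 CPM in OIR-CIH and 2937, 2244 and 2093 CPM in OIR-Norm. The means of 2657 ± 298 and 2425 ± 450 CPM (SD, n = 3 each) differed by less than the SD of either group. Aldoa (0.05), Aldoc (0.02), Tpi1 (0.06) and Pkm (0.06) were nearer to 0. OIR-Norm retina 1 was the highest OIR-Norm library for all 9 of these genes, and OIR-CIH retina 1 was the highest OIR-CIH library for all but Aldoc and Eno2.

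**Figure D4:**
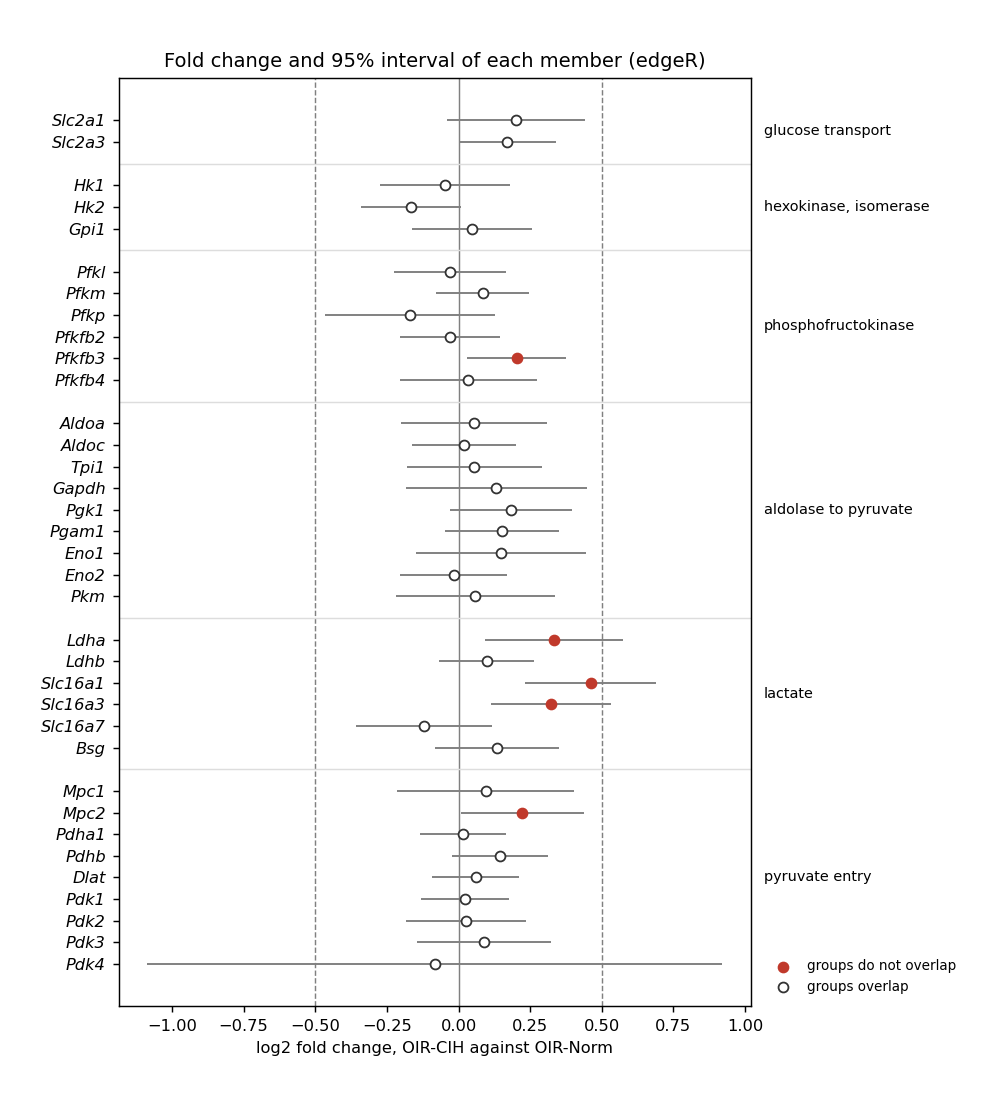
Log2 fold change of each member, OIR-CIH against OIR-Norm, with its 95% interval from edgeR (x axis); filled red points mark genes whose groups do not overlap and dashed lines mark 0.5 in either direction. The lactate genes Slc16a1, Slc16a3 and Ldha have the highest points, and 31 of 35 intervals lie between the dashed lines.

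Pyruvate enters mitochondria through the MPC carrier and is oxidized by the pyruvate dehydrogenase complex, which PDK kinases switch off. Mpc2, a carrier subunit, was at 45.0, 44.3 and 47.4 CPM in OIR-CIH and 41.5, 32.8 and 42.8 CPM in OIR-Norm. OIR-Norm retina 2 was well below the other libraries, and the log2 difference was 0.22 (SE 0.10, edgeR adjusted p = 0.361). Without that retina it was 0.11 (adjusted p = 0.718). Its partner Mpc1 overlapped (0.10, SE 0.14). The complex subunits Pdhb (0.14, SE 0.08), Dlat (0.06) and Pdha1 (0.02) overlapped between groups. None of the kinases was apart, with Pdk1, a known HIF target, at 105.9 to 112.2 against 102.0 to 113.8 CPM (0.02, SE 0.07). Pdk2 (0.03) and Pdk3 (0.09) overlapped as well. Pdk4, the starvation-induced kinase, had 7 to 20 counts in a library, and its 95% interval of -1.09 to 0.92 leaves its direction undetermined at this depth.

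Per kilobase of exon, Aldoa was the most abundant member at a mean of 725 CPM per kb over the 6 retinas, followed by Gapdh (615), Pkm (598), Ldha (540), Bsg (510), Eno1 (441), Tpi1 (325) and Pgk1 (265). Each of these overlapped its next lower neighbour over the 6 retinas, except Pgk1, which was above Pgam1 (179) in every retina. Among the transporters Slc2a1 (112) was above Slc16a1 (74.4) in mean level, with Slc16a3 at 25.7, Slc2a3 at 15.7 and Slc16a7 at 1.57. At the low end, Pfkfb4 (2.99), Slc16a7 and Pdk4 (0.145) did not overlap their neighbours.

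Where several genes encode the same step, the share of each was taken within a retina, so that a factor common to both genes cancels. Ldha made up 89.0%, 89.1% and 88.1% of lactate dehydrogenase counts per kb in OIR-CIH and 87.4%, 86.8% and 86.8% in OIR-Norm. The groups did not overlap, though the gap was 1.74 percentage points (88.7 ± 0.53% against 87.0 ± 0.34%, SD, n = 3 each). Slc16a1 took 74.7%, 72.2% and 75.2% of the counts per kb of the 3 lactate transporters in OIR-CIH and 72.1%, 71.5% and 71.9% in OIR-Norm. The nearest retinas stood at 72.2% and 72.1%. The share of Slc16a7 was lower in every OIR-CIH retina (1.10% to 1.44% against 1.52% to 2.37%). Of the PFKFB genes, Pfkfb3 held 16.2% to 18.2% in OIR-CIH and 14.0% to 16.1% in OIR-Norm, and Pfkfb2 held correspondingly less. Shares overlapped for the glucose transporters (Slc2a1 at 86.5% to 88.8%), hexokinases (Hk1 at 76.5% to 81.1%), phosphofructokinases, aldolases, enolases and PDK kinases. These shares were described without a test, since 3 retinas against 3 allow an exact permutation p of 0.1 at the lowest.

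**Figure D5:**
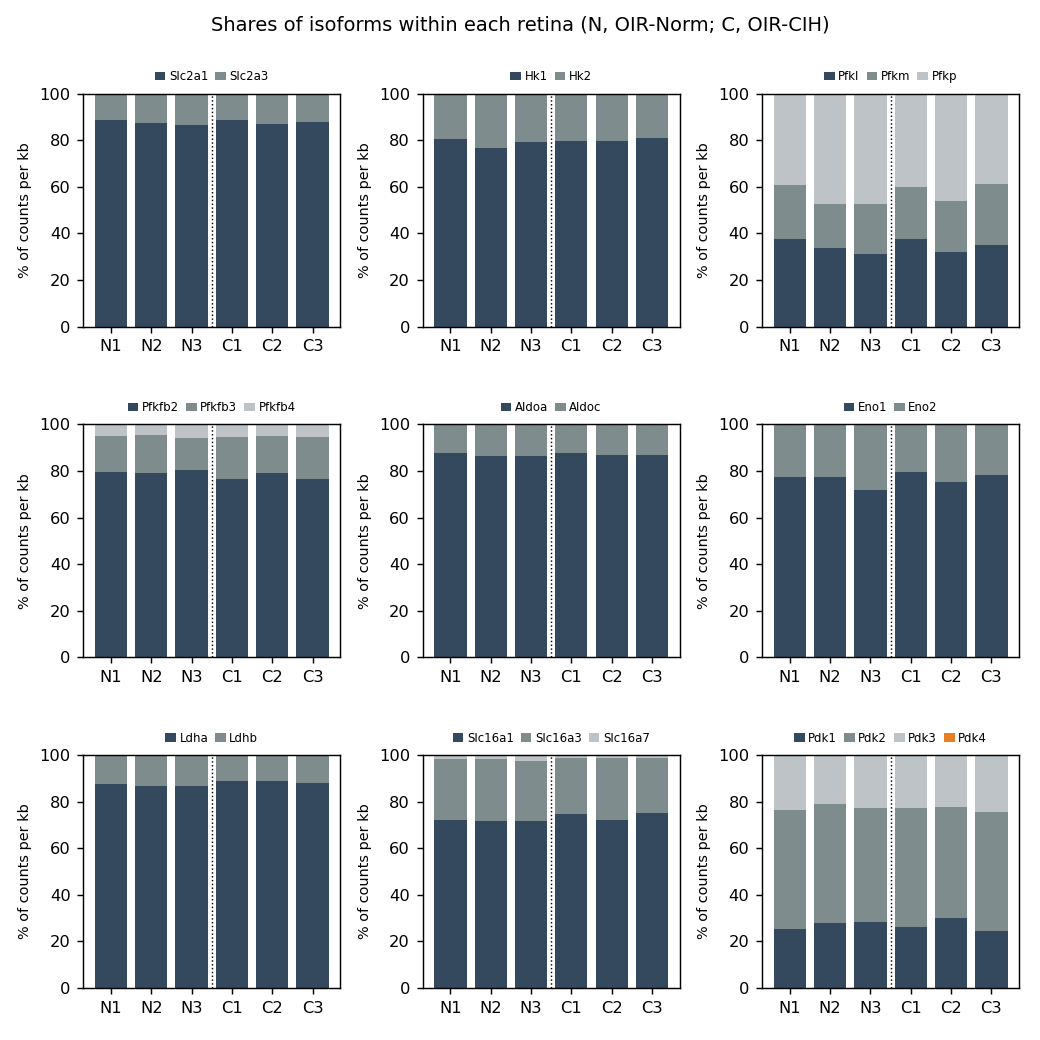
Share of counts per kb (%, y axes from 0 to 100) taken by each gene of 9 isoform families in each retina, OIR-Norm (N1 to N3) left and OIR-CIH (C1 to C3) right of the dotted line. Ldha holds 86.8% to 87.4% in OIR-Norm and 88.1% to 89.1% in OIR-CIH, and the bars of most other families overlap between groups.

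Around these 35 genes, 122 others of carbohydrate metabolism and its control were listed, of which 115 were tested. In edgeR 2 of them passed an adjusted p of 0.05, both higher in OIR-CIH, beside 78 of all genes tested (0.39%), of which 27 were higher and 51 lower. Of these 2 genes, 1 (Ppp1r3c) also met the fold limit. The median log2 difference of the 115 was 0.04. Among them 20 were apart between groups in the higher and 11 in the lower direction, beside the 9.12% and 9.26% of all genes given above. These genes were listed with earlier results of these data known, so the counts are not read as a result about the list.

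Ppp1r3c encodes the PTG subunit that brings a phosphatase to glycogen and so favours its storage (ENSMUSG00000067279, chromosome 19, 36731731 to 36736653). It rose in OIR-CIH, to 50.6, 49.7 and 52.8 CPM from 36.8, 32.2 and 32.5 CPM in OIR-Norm, a log2 difference of 0.59 (SE 0.08, edgeR adjusted p = 0.00541). It passed with any 1 retina left out (adjusted p 0.0058 to 0.0439) but not with the pigment epithelium covariate (0.53, adjusted p = 0.108). It was the only one of 22 glycogen genes past an adjusted p of 0.05 in edgeR, and next by p was Ppp1r3d, another such subunit (0.29, adjusted p = 0.434). The study, which used DESeq, also lists Ppp1r3c among its significantly different genes.

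Slc16a6 encodes MCT7, a monocarboxylate transporter family member linked to ketone bodies in liver (ENSMUSG00000041920, chromosome 11, 109450855 to 109473598). It rose to 207.5, 195.4 and 180.9 CPM in OIR-CIH from 140.5, 132.6 and 141.3 CPM in OIR-Norm. The log2 difference was 0.49 (SE 0.08, edgeR adjusted p = 0.0127), just under the fold limit of the study. The difference stayed at 0.44 to 0.54 with any 1 retina left out and was 0.45 with the pigment epithelium covariate. Its adjusted p rose to 0.0842 without OIR-CIH retina 1 (0.44), 0.0541 without OIR-Norm retina 2 (0.46) and 0.175 with the covariate. Slc16a8, which encodes MCT3 of the pigment epithelium, was at 22.8, 18.3 and 17.8 against 17.4, 9.2 and 11.5 CPM, with its highest value of either group in retina 1 as for the pigment epithelium sum. Its log2 difference of 0.62 (SE 0.19) did not pass in edgeR (adjusted p = 0.229). The study, which used DESeq with the same limits, lists Slc16a8 among its significantly different genes. The edgeR outcome for this gene thus differs from the study's DESeq outcome. The 2 come from different tests, and a DESeq2 result for this gene is not given here, so this is not read as a failure to reproduce.

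Of the 15 citrate cycle genes, 6 were apart in the higher direction and 0 in the lower, with a median log2 difference of 0.12, where 9.12% and 9.26% of all genes were apart. In edgeR 0 of them passed an adjusted p of 0.05, and 5 had an unadjusted p under 0.05 beside 13.2% of all genes. The lowest p were those of Idh3g, a subunit of isocitrate dehydrogenase (80.3 ± 1.38 against 70.2 ± 3.46 CPM, adjusted p = 0.286), and Sdhb, the iron-sulfur subunit of succinate dehydrogenase (62.2 ± 2.08 against 52.2 ± 6.70 CPM, adjusted p = 0.293). Among 21 regulators, 2 were apart in the higher and 6 in the lower direction (9.12% and 9.26% of all genes), and 0 passed an adjusted p of 0.05 in edgeR (7 at an unadjusted p under 0.05, beside 13.2% of all genes). Trp53, the p53 gene, had a log2 difference of -0.38 (adjusted p = 0.192). Egln1, the oxygen-sensing hydroxylase that marks HIF for degradation and is itself a HIF target, was at 222.7, 198.3 and 216.7 against 181.9, 183.6 and 155.4 CPM (0.29, adjusted p = 0.217).

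The pentose phosphate, NADH shuttle and gluconeogenesis lists, with 9, 10 and 6 genes tested, had 0 past an adjusted p of 0.05 in edgeR. At an unadjusted p under 0.05 they had 2, 2 and 1, beside 13.2% of all genes. Taldo1, the transaldolase (0.26, adjusted p = 0.283), and Pgls, the lactonase of the oxidative branch (0.19, adjusted p = 0.378), led the first list. In the shuttles Gpd1l (0.17) and Gpd1 (-0.43), both glycerol 3-phosphate dehydrogenases, had opposite signs. Fbp1, which opposes phosphofructokinase, had 5, 6 and 9 counts in OIR-CIH and 0, 1 and 1 in OIR-Norm (adjusted p = 0.196), too few for a fold change to be given. G6pc3, a glucose 6-phosphatase, was at 34.2 to 38.3 against 32.3 to 35.7 CPM. Of 6 further genes listed with the pyruvate dehydrogenase complex, which include pyruvate carboxylase (Pcx), 1 was apart in the higher and 2 in the lower direction, beside 9.12% and 9.26% of all genes. Pdpr (-0.20, adjusted p = 0.366) and Pdp1 (-0.13, adjusted p = 0.51), parts of the phosphatases that switch the complex back on, were the 2 lower ones. Pdhx, a subunit that holds the complex together, was at 49.8 to 51.0 against 44.1 to 48.6 CPM (0.10, adjusted p = 0.571).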

How the data were processed

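Total RNA (250 ng) of 3 OIR-CIH and 3 OIR-Norm retinas was made into TruSeq Stranded mRNA libraries. Per the labels and the study's methods, the authors aligned reads with STAR 2.7.9a and deposited raw, unnormalized counts per Ensembl mouse gene. The labels name GRCm38 and the methods a later Ensembl release. Which strand column was counted is not given in the sources used here, so overlapping antisense genes may share reads.

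Counts were analysed as deposited. Symbols were found for 32158 of 32285 IDs in GENCODE M21 (GRCm38), which also gave coordinates and exon lengths. Aldoa matched 2 IDs, and the one with more counts was used (the other had 141 to 251 counts). Genes with a total of at least 10 counts were tested with edgeR 4.0.16 in R 4.3.3 (TMM scaling, quasi-likelihood test, no covariates, two-sided), with Benjamini-Hochberg adjustment over all 20021. Called genes met both limits of the study, 0.05 for adjusted p and 0.5 for the size of the log2 fold change. CPM were computed from TMM-scaled library sizes, and values per kb by dividing CPM by exon length. Groups were termed apart where all retinas of one lay above all of the other. Replicate libraries differed by 10.8 to 21.9 times the sampling variance (chi-square per degree of freedom), so no library was counted as a repeat of another. Total counts of 26289905 to 38010151 per library set the precision. The fit was tested on simulated data.

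Alternatives were DESeq2 1.42.0, limma 3.58.1 on log2(CPM + 0.5), DESeq2 size factors, no filter, edgeR's own filter, a replicate block, each retina left out in turn and, chosen after the data were seen, a pigment epithelium covariate. The members and gene lists were chosen with earlier results of these data known. All members are described. Of the other pathway genes, those past an adjusted p of 0.05 are named, and otherwise at most 2 of each list with the lowest p, except Slc16a8, Ppp1r3d, Pdhx and Pcx, which were chosen after their values were seen.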

Additional observations from a re-analysis of the deposited data

How the results depend on the processing

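No alternative brought a member past both thresholds. Members past an adjusted p of 0.05 at any fold change numbered 0 in the reported fit, 1 with no filter on low counts (Slc16a1, log2 difference 0.46) and 2 in DESeq2 (Slc16a1, 0.46, and Ldha, 0.33). The genes called numbered 63 as reported, 213 with no filter, 135 in DESeq2 and 22 with the pigment epithelium covariate, and 35 (without OIR-CIH retina 1) to 104 (without OIR-Norm retina 3) when 1 retina was left out. Other pathway genes past an adjusted p of 0.05 numbered 2 as reported, 3 in DESeq2, 3 with no filter and 0 with the covariate. Their number ranged from 1 (without OIR-CIH retina 1 or OIR-Norm retina 2) to 3 when 1 retina was left out. Of 455 log2 differences of members over 13 alternatives, 417 kept their sign and their side of the threshold, 3 passed it and 35 changed sign, in 19 members. Direction counts stayed at 27 above and 8 below 0 in the other alternatives that used all retinas, and were 19 and 16 with the covariate. In that fit the sign changed for Gpi1 (-0.043), Pfkp (0.044), Pfkfb2 (0.035), Aldoa (-0.087), Aldoc (-0.033), Tpi1 (-0.12), Gapdh (-0.10), Eno1 (-0.044), Pkm (-0.10), Slc16a7 (0.034), Pdk1 (-0.0055), Pdk2 (-0.11), Pdk3 (-0.024) and Pdha1 (-0.016). The cause was not tested. With 1 retina left out, differences spanned 0 for Hk1 (-0.10 to 0.034), Gpi1 (-0.025 to 0.090), Pfkl (-0.097 to 0.018), Pfkfb2 (-0.074 to 0.0020), Pfkfb4 (-0.031 to 0.11), Aldoc (-0.034 to 0.069), Tpi1 (-0.012 to 0.15), Eno2 (-0.064 to 0.0056), Pkm (-0.0090 to 0.16), Pdk1 (-0.020 to 0.059), Pdk2 (-0.057 to 0.12), Pdk4 (-0.39 to 0.23) and Pdha1 (-0.032 to 0.039). Without division by exon length the gap in the share was 0.943 points for Ldha, -0.943 points for Ldhb and -1.48 points for Slc16a7.

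Both groups use the numbers 1 to 3 and no source ties equal numbers to a shared litter or day. Same-numbered retinas correlated at 0.16, 0.14 and -0.24 in their deviations from the group means, so no pairing was assumed. With a replicate block 84 genes and 0 members were called, and the adjusted p of Slc16a1 was 0.0559. Depth limits Pdk4 and Fbp1, while the spread between retinas limits the other members.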
